A study of Mus musculus with 20 samples.

Results

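The genes described here encode the amino acid transporters of the solute carrier families Slc1a, Slc3a, Slc6a, Slc7a, Slc36a, Slc38a and Slc43a, read in bulk RNA of the outer eyecup, the retinal pigment epithelium (RPE) with the choroid behind it. They were chosen by symbol alone. The table held 61 such symbols among its 24411 rows, and 59 had values that summed to at least 5 over the 20 libraries (7 Slc1a, 2 Slc3a, 18 Slc6a, 14 Slc7a, 4 Slc36a, 11 Slc38a and 3 Slc43a genes of 18745 genes tested). Slc6a18 and Slc7a12 lay under that filter. All mice were on the C57BL/6 background and had been kept for 12 weeks after weaning on a vitamin A sufficient (VAS, 4 IU/g) or vitamin A deficient (VAD, 0 IU/g) diet. They were wild type (WT), or carried no functional copy of Stra6 (Stra6-/-), the receptor that brings retinol from the blood into the RPE. The 4 groups, VAS WT, VAD WT, VAS Stra6-/- and VAD Stra6-/-, had 5 libraries each, and each library held, by the study's methods, the eyecups of 1 mouse. WT mice came from a commercial supplier and Stra6-/- mice from the laboratory's own colony, so colony and genotype cannot be told apart, and the knockout is not limited to the RPE.

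Amino acid transporters are grouped by what they carry and by how they are driven. Sodium-coupled carriers (Slc1a, Slc6a and most of Slc38a) concentrate glutamate, GABA, glycine, taurine, creatine, proline or glutamine inside cells, whereas the light chains of the Slc7a family exchange amino acids across the membrane and reach it only when bound to a heavy chain of the Slc3a family. In the outer eye the RPE passes amino acids and taurine between the choroidal blood and the photoreceptors, and glia and neurons of the retina clear glutamate and GABA with carriers of the same families.

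Several libraries stood apart from the rest in Stra6 or in sex-linked transcripts. Stra6 itself was at 2414 to 2742 in VAS WT and 669 to 1529 in VAD WT. It was at 564 to 694 in VAS Stra6-/- and, high for a knockout label, at 1973 to 2393 in the libraries labelled VAD Stra6-/- (log2 fold change 1.23 against VAD WT, SE 0.18, adjusted p = 3.88e-06). These values are gene counts divided by 1 size factor per library, called normalized values below, and every adjusted p is from limma with Benjamini-Hochberg adjustment over the 18745 genes, called at 0.05. The fit shares 1 estimate of spread per gene over the 4 groups, which can understate the spread of VAD WT. In VAD WT, replicates 2 and 4 differed from replicates 1, 3 and 5. Results given below without that pair rest on a choice made after the values were seen. Leaving the pair out also narrows the spread of genes that split, so adjusted p of those fits are descriptive only. The X-linked transcript Xist stood at 10912 and 11767 in those 2 libraries and at 174 to 234 in the other 3, and the Y-linked Ddx3y at 75.2 and 80.5 against 1041 to 1133. Ranges of Xist were 7.69 to 38.4 in VAS WT, 15320 to 18052 in VAS Stra6-/- and 3570 to 4280 in the libraries labelled VAD Stra6-/-, and those of Ddx3y were 981 to 1193, 0 to 1.02 and 741 to 970. In the VAS groups a library with 1 of these transcripts high had the other low, whereas the libraries labelled VAD Stra6-/- had both. That is at odds with 1 mouse per library in that group, and the SDs and adjusted p take each library as 1 mouse. In VAD WT, replicates 2 and 4 had more Ddx3y than any VAS Stra6-/- library, and replicates 1, 3 and 5 more Xist than any VAS WT library. Whether each VAD WT library held 1 mouse was not tested. Sex-linked transcripts therefore moved with the groups. On the VAS diet they separated the genotypes in every library, so sex and genotype cannot be told apart there, including where a gene is said to differ by genotype. Their part in the other results was not tested.

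Markers of other cells moved as well. The summed value of 16 RPE markers was 120600 to 137916 in VAS WT, 35929 to 65444 in VAD WT, 124701 to 130659 in VAS Stra6-/- and 535473 to 579555 in the libraries labelled VAD Stra6-/-. For 15 surface epithelium markers, among them keratins of the conjunctiva and skin, the ranges were 543817 to 608199, 298568 to 712646, 656103 to 685423 and 29184 to 36867 in the same order. Against VAD WT, 15 of the 16 RPE markers were called higher and 15 of the 15 surface epithelium markers lower in the libraries labelled VAD Stra6-/-. The part of RPE content in the Stra6 values was not tested. Those values alone do not settle the genotype of the libraries labelled VAD Stra6-/-. The 12 rod markers summed to 95798 to 109501 there and to 133355 to 340425 in VAD WT, the 7 Müller glia markers to 73163 to 80334 and 35655 to 54119, the 10 sclera and fibroblast markers to 222035 to 233835 and 48717 to 170578, and the 10 macrophage markers to 17759 to 18471 and 5139 to 5805. In VAS Stra6-/- 12 of 13 skeletal muscle markers were called higher than in VAS WT (sums of 37808 to 42538 and 15043 to 18384). In the same comparison 10 of 10 cone markers were called lower (sums of 1541 to 1664 and 4291 to 5637), as were 5 of 6 myelinating glia markers (6736 to 7238 and 10382 to 11247) and 6 of 13 inner retina neuron markers (7118 to 7329 and 7508 to 9174). In bulk tissue a smaller share of a cell type and less RNA per cell cannot be told apart.

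The transporters changed in every comparison, in both directions. Between genotypes on the VAS diet, 13 of the 59 were higher in VAS Stra6-/- and 11 lower, where 26.7% of all genes tested were called, 15.9% higher and 10.8% lower. The median log2 fold change was -0.02 over the transporters and 0.02 over all genes, and 25 transporters had groups that did not overlap, against 32.6% of all genes. No transporter was called beyond 2 on the log2 scale, where 1.1% of all genes were. Between diets in WT, 2 were higher and 11 lower in VAD WT, against 8.81% of all genes called, 3.29% higher and 5.52% lower, and the medians were -0.21 and 0.00. Groups did not overlap for 12 transporters, against 6.36% of all genes, and 0 were called beyond 2, against 0.405%. Between diets in Stra6-/-, 19 were higher and 14 lower in the libraries labelled VAD Stra6-/-, near the 53.4% of all genes called (24.5% higher and 28.9% lower), with medians of 0.29 and -0.07. Groups did not overlap for 34, against 51.5% of all genes, and 2 were higher and 3 lower by more than 2 on the log2 scale, against 9.11% of all genes in either direction. Between genotypes on the VAD diet, 25 were higher and 16 lower in the libraries labelled VAD Stra6-/-, against 56.1% of all genes (26.3% higher and 29.7% lower), with medians of 0.44 and -0.05. Groups did not overlap for 26, against 37.5% of all genes, and 6 were higher and 2 lower by more than 2, against 10.4% of all genes in either direction. The comparisons share groups and are not independent of each other. The genotype by diet interaction, which tests whether the diet difference was unequal in the 2 genotypes, was called for 29 transporters, 21 of them positive and 8 negative, against 44.4% of all genes (19.6% positive and 24.9% negative). Of the 29, 4 were above 2 and 3 below -2 on the log2 scale, against 10.5% of all genes in either direction.

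**Figure D1:**
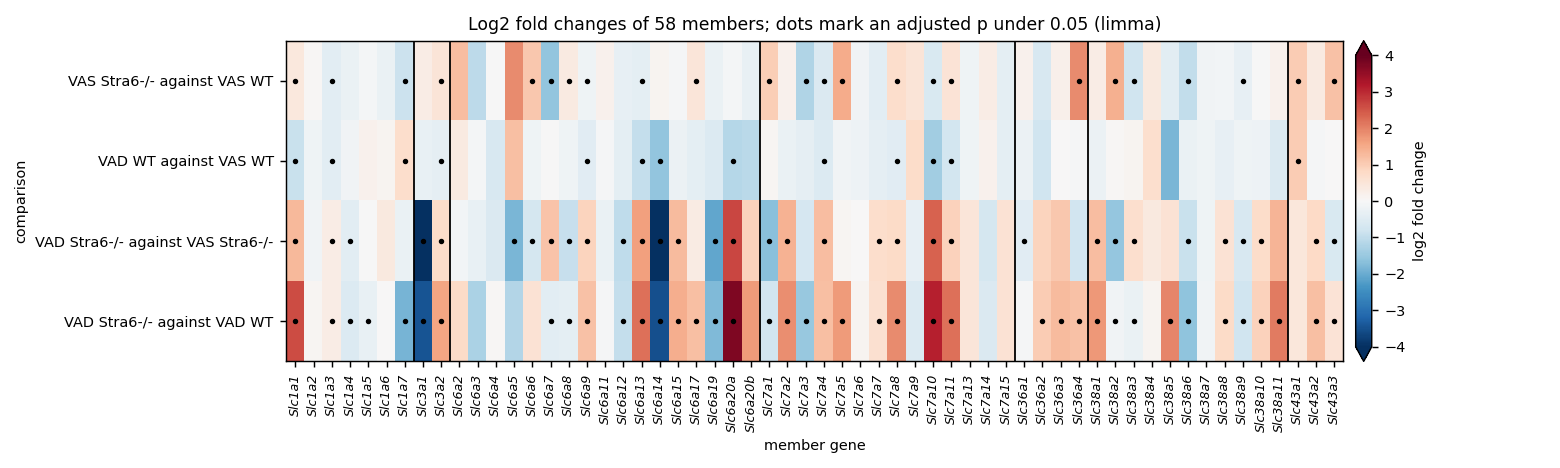
Log2 fold change (colour, from blue for lower to red for higher) of 58 of the transporters (columns, grouped by family) in 4 comparisons (rows), with a dot where the adjusted p was under 0.05. The lower rows, which hold the libraries labelled VAD Stra6-/-, carry 33 and 40 dots and the deepest colours, at Slc6a14 and Slc3a1 for lower and at Slc6a20a, Slc7a10 and Slc1a1 for higher values, whereas the row of VAD WT against VAS WT has 13 dots.

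Levels differed widely among the members. Averaged over all libraries, 16 had a normalized value of at least 1000, 24 lay between 100 and 1000, 9 between 10 and 100 and 10 under 10. Per kilobase of exon, the scale on which genes can be set beside each other, Slc6a14 led in VAS WT at a normalized value of 1456 per kb, followed by Slc3a2 at 1227, Slc6a13 at 912, Slc6a6 at 892 and Slc38a3 at 879. The order in the libraries labelled VAD Stra6-/- was Slc3a2 at 2911 per kb, Slc6a13 at 2149, Slc1a1 at 1354, Slc6a6 at 1165 and Slc6a9 at 1029.7, and Slc6a14 stood at rank 34 with 42.0 per kb.

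The heavy chain Slc3a2 (chr19:8706882-8723369, GRCm38), which carries the light chains of most exchangers to the membrane, was lowest in VAD WT and highest in the libraries labelled VAD Stra6-/-. Slc3a2 values, in the order of replicates 1 to 5, were 4342, 4201, 4389.6, 4226 and 4489 in VAS WT and 3058, 4154, 2991, 3947 and 3047 in VAD WT. They were 6017, 6198, 6080.3, 6249.7 and 6367 in VAS Stra6-/- and 9899.9, 10322, 10556, 10072 and 10511 in the libraries labelled VAD Stra6-/-. No ranges overlapped, although replicates 2 and 4 of VAD WT came close to VAS WT. The log2 fold change was 0.51 between genotypes on VAS (SE 0.08, adjusted p = 5.76e-05), -0.35 between diets in WT (SE 0.08, adjusted p = 0.00790), 0.73 between diets in Stra6-/- (SE 0.08, adjusted p = 9.86e-08) and 1.59 between genotypes on VAD (SE 0.08, adjusted p = 4.59e-13). With only the 2 groups compared in the fit, the adjusted p between diets in WT was 0.116.

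Among the light chains, Slc7a5 (chr8:121881150-121907694), the exchanger of large neutral amino acids such as leucine, was called by genotype on both diets. Slc7a5 values were 1134, 1237, 1153, 1064 and 1132 in VAS WT and 802, 1502, 891, 1517 and 725 in VAD WT. They were 3283, 3102, 3172, 3249.9 and 3097 in VAS Stra6-/- and 3301, 3385, 3379.9, 3358 and 3298 in the libraries labelled VAD Stra6-/-. All 10 Stra6-/- libraries lay above all 10 WT libraries, and replicates 2 and 4 of VAD WT lay above the rest of that group and above VAS WT. Slc7a5 rose by genotype with a log2 fold change of 1.48 on VAS (SE 0.15, adjusted p = 3.13e-07) and 1.69 on VAD (SE 0.15, adjusted p = 3.76e-09), whereas the diet difference in Stra6-/- was 0.07 (95% interval -0.24 to 0.38, adjusted p = 0.717, or 0.0158 with only these 2 groups in the fit). Between diets in WT Slc7a5 was at -0.14 over all libraries (adjusted p = 0.631) and at -0.51 without replicates 2 and 4 of VAD WT (adjusted p = 3.57e-07). Slc7a8, its relative with a broader range of neutral substrates, had a mean of 1181 ± 149 (SD, n = 5) in VAS WT, 865 ± 100.3 in VAD WT, 1896 ± 70.9 in VAS Stra6-/- and 3212 ± 341 in the libraries labelled VAD Stra6-/-. All 4 comparisons of Slc7a8 were called, at 0.69 and 1.89 on the log2 scale between genotypes on VAS and VAD, -0.45 between diets in WT and 0.75 between diets in Stra6-/-.

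Slc7a10 (chr7:35186385-35201114), which exchanges small neutral amino acids such as serine and glycine, had one of the widest ranges of the light chains. Slc7a10 values were 637, 742, 558, 553 and 669 in VAS WT and 224, 269, 231, 231 and 237 in VAD WT. They were 401, 458, 345, 426 and 414 in VAS Stra6-/- and 2131, 2024, 1956, 2104 and 2151 in the libraries labelled VAD Stra6-/-. The order from VAD WT through VAS Stra6-/- and VAS WT to the libraries labelled VAD Stra6-/- held without overlap between groups. Slc7a10 fell with the VAD diet in WT (log2 fold change -1.40, SE 0.09, adjusted p = 1.33e-09) and rose with it in the libraries labelled VAD Stra6-/- (2.35, SE 0.09, adjusted p = 4.31e-15). Between genotypes it was -0.62 on VAS (SE 0.09, adjusted p = 2.28e-05) and 3.12 on VAD (SE 0.09, adjusted p = 8.44e-17). Its exons share 377 bases with Lrp3 on the opposite strand, and since the strand used in counting is not given in the sources used here, reads there cannot be assigned to 1 of the 2 genes.

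Slc7a11 (chr3:49892526-50443614), the light chain that imports cystine in exchange for glutamate and so feeds glutathione synthesis, followed the same order as Slc3a2. Slc7a11 values were 153, 216, 275, 197 and 165 in VAS WT and 103, 116, 135, 139.5 and 105 in VAD WT. They were 309.8, 257, 328, 291 and 263 in VAS Stra6-/- and 584, 604, 463, 601 and 515 in the libraries labelled VAD Stra6-/-. Only the VAS groups overlapped, through replicate 3 of VAS WT. The log2 fold change was 0.55 between genotypes on VAS (SE 0.15, adjusted p = 0.00852), -0.73 between diets in WT (SE 0.15, adjusted p = 0.00293), 0.93 between diets in Stra6-/- (SE 0.15, adjusted p = 1.66e-05) and 2.20 between genotypes on VAD (SE 0.15, adjusted p = 4.69e-11). With only the 2 groups compared in the fit, the adjusted p between diets in WT was 0.0672.

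**Figure D2:**
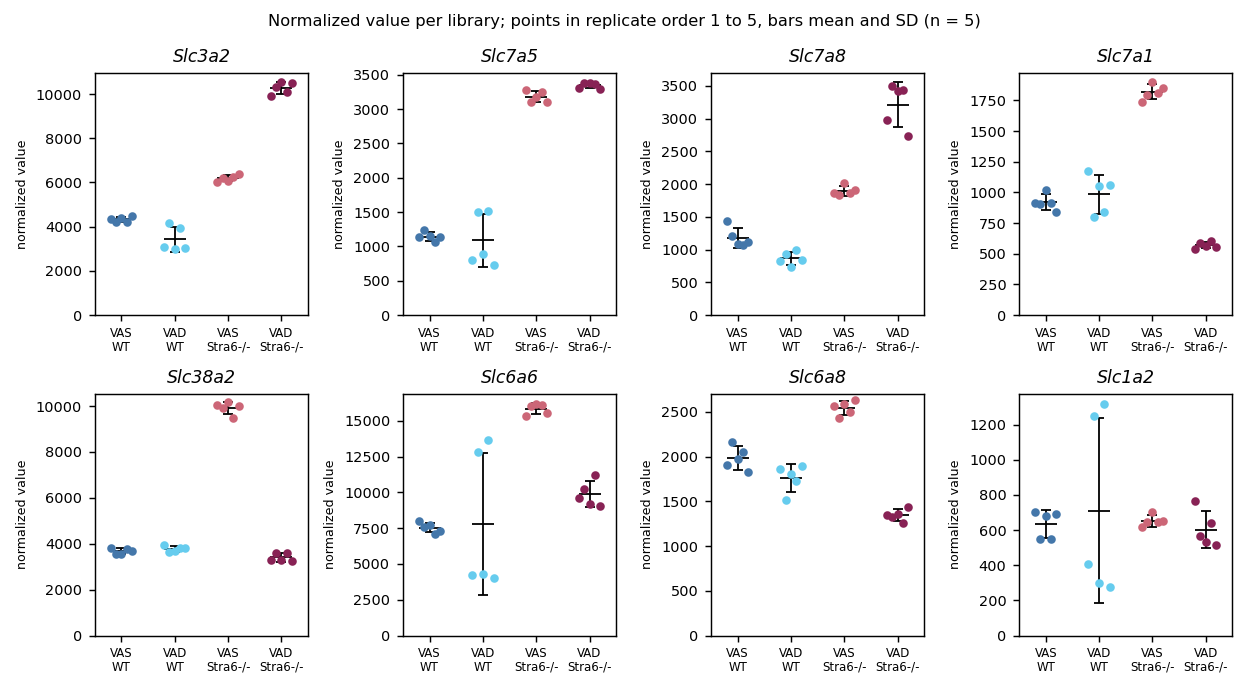
Normalized value (linear axis from 0) of 8 transporters in each library, with the points of each group in replicate order and bars for the mean and SD (n = 5). Slc3a2, Slc7a5 and Slc7a8 are highest in the libraries labelled VAD Stra6-/-, Slc7a1, Slc38a2, Slc6a6 and Slc6a8 peak in VAS Stra6-/-, and replicates 2 and 4 of VAD WT stand above the other 3 for Slc3a2, Slc7a5, Slc6a6 and Slc1a2.

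Slc7a11 is also a known target of ATF4, the factor that binds C/EBP-ATF response elements (CARE) in genes induced by amino acid shortage. The motif TGATGNAAN was searched on both strands from 250 bases before to 50 bases after each start in RefSeq (GRCm38.p6). Of the 59 transporters 43 had such a window, and 3 of these (6.98%) held the motif, Slc7a11, Slc1a4 and Slc7a7, against 4.50% of 27025 genes. The windows of these 3 are printed because they carry the only matches, with the motif in capitals, read along the gene's own strand. Slc7a11 has a pair of matches facing each other (chr3:50443652-50443681, minus strand, -68 to -39 from the start):
Slc7a11: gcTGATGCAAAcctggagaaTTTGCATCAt
Slc1a4, over its start (chr11:20332700-20332728, minus strand): tgcctcctgcGTTGCATCAtctccagcct
Slc7a7, over its start (chr14:54417927-54417955, minus strand): acctagaagcTGATGCAACagcttccccg
Slc7a7, from -141 to -133 of its start (chr14:54418067-54418095, minus strand): cgcttgggctTGATGAAAGgttcactggg
An exact direct repeat of AGGTCA with 5 bases between, a strict form of the retinoic acid response element, was in 0 of the 43 transporters with a window and in 3 of all 27025 genes. A string this rare cannot show whether the transporters have such elements.

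The remaining partners of Slc3a2 changed less. Slc7a7, which exports basic amino acids from epithelia and macrophages, was called only where the libraries labelled VAD Stra6-/- took part, at 0.70 against VAS Stra6-/- (adjusted p = 0.00322) and 0.65 against VAD WT (adjusted p = 0.00551), with group means from 103 to 168. Its exons share 232 bases with Oxa1l on the other strand. Slc7a6, with the same substrates, was not called in any comparison, and its means lay between 259 and 302.

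Slc3a1 (chr17:85028376-85064236), the heavy chain of the cystine and basic amino acid exchanger of kidney and gut, was low throughout. Slc3a1 values were 38.3, 19.2, 34.0, 51.7 and 36.6 in VAS WT and 69.6, 13.4, 28.4, 21.4 and 27.3 in VAD WT. They were 52.8, 24.1, 36.6, 61.7 and 48.7 in VAS Stra6-/- and 0, 0.902, 22.5, 1.76 and 0 in the libraries labelled VAD Stra6-/-. In the last group replicate 3 stood within the range of VAD WT, while the other 4 libraries held no more than a few reads. Slc3a1 fell there against VAS Stra6-/- (log2 fold change -4.06, SE 0.65, adjusted p = 1.72e-05) and against VAD WT (-3.45, SE 0.65, adjusted p = 1.12e-04). Because the values are so close to 0, the size depends on the pseudocount, and against VAS Stra6-/- it was -2.84 with a pseudocount of 4 and -4.85 without replicate 3. The gene shares 601 exon bases with Prepl on the other strand, whose mean value was 961. Its light chain Slc7a9 reached at most 11.7 in any library, and Slc7a13, another heteromer-forming light chain, at most 4.51.

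The cationic amino acid transporters took opposite courses. Slc7a1 (chr5:148327410-148399904), the widely expressed importer of arginine and lysine, peaked in VAS Stra6-/-. Slc7a1 values were 916, 909, 1018, 913 and 836 in VAS WT and 1172, 799, 1051, 837 and 1062 in VAD WT. They were 1739, 1793, 1902, 1807 and 1852 in VAS Stra6-/- and 536, 586, 563, 601 and 559 in the libraries labelled VAD Stra6-/-. Every VAS Stra6-/- library lay above the other 15 and every library labelled VAD Stra6-/- below them. Slc7a1 rose between genotypes on VAS (log2 fold change 0.99, SE 0.09, adjusted p = 6.05e-08), and fell between diets in Stra6-/- (-1.67, SE 0.09, adjusted p = 8.05e-13) and between genotypes on VAD (-0.77, SE 0.09, adjusted p = 1.70e-07). The diet difference in WT was 0.09 (SE 0.09, adjusted p = 0.622), or 0.25 without replicates 2 and 4 of VAD WT (adjusted p = 0.00290).

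Slc7a2 (chr8:40862396-40922308), which carries the same cations and is known from liver and activated macrophages, was called higher where Slc7a1 was called lower. Slc7a2 values were 278, 275, 336, 301 and 362 in VAS WT and 159, 445, 128, 546 and 217 in VAD WT. They were 325, 361, 345, 353 and 359 in VAS Stra6-/- and 983, 887, 849.6, 1044 and 868 in the libraries labelled VAD Stra6-/-. The last group lay above the other 15 libraries, and replicates 2 and 4 of VAD WT lay above VAS WT and VAS Stra6-/- while replicates 1, 3 and 5 lay below. Slc7a2 rose between diets in Stra6-/- (log2 fold change 1.40, SE 0.27, adjusted p = 1.39e-04) and between genotypes on VAD (1.85, SE 0.27, adjusted p = 4.86e-06, or 2.49 without replicates 2 and 4 of VAD WT).

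Slc7a3 (chrX:101079210-101086020), the cationic transporter best known from brain, was low and fell between genotypes on both diets. Slc7a3 values were 106, 80.7, 78.8, 116 and 91.0 in VAS WT and 127, 76.2, 44.0, 57.3 and 83.2 in VAD WT. They were 54.9, 63.7, 15.3, 38.0 and 49.7 in VAS Stra6-/- and 28.2, 37.0, 18.4, 32.5 and 14.4 in the libraries labelled VAD Stra6-/-. Both Stra6-/- groups stood below the WT group of the same diet without overlap, by -1.20 on VAS (SE 0.36, adjusted p = 0.0172) and -1.52 on VAD (SE 0.36, adjusted p = 0.00116). Without replicate 3 of VAS Stra6-/- the former was -0.87 (adjusted p = 0.0571). Slc7a4, a relative without known transport activity, fell in VAD WT and in VAS Stra6-/- against VAS WT (-0.56 and -0.59, adjusted p = 0.0491 and 0.0145) and rose in the libraries labelled VAD Stra6-/- by 1.25 against VAS Stra6-/- and 1.21 against VAD WT (adjusted p = 2.92e-06 and 4.13e-06). Slc7a14, a lysosomal member of neurons and photoreceptors, was not called in any comparison, and its means lay between 67.3 and 125. Slc7a15 was at or under 6.14 in every library.

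Among the glutamate carriers of the Slc1a family, Slc1a1 (chr19:28835049-28913960), which takes up glutamate and cysteine in neurons and epithelia, had the largest change. Slc1a1 values were 3342, 3197, 3489, 3453 and 3553 in VAS WT and 1735, 1737, 1957, 1767 and 1917 in VAD WT. They were 4594, 4507, 4648, 4435 and 4387 in VAS Stra6-/- and 11332, 11502, 11397, 11103 and 10586 in the libraries labelled VAD Stra6-/-. The 4 groups did not overlap, and in VAD WT replicates 2 and 4 lay within the spread of the other 3. Slc1a1 fell with the VAD diet in WT (log2 fold change -0.90, SE 0.05, adjusted p = 4.47e-10) and rose in the libraries labelled VAD Stra6-/- against VAS Stra6-/- (1.31, SE 0.05, adjusted p = 1.58e-14) and VAD WT (2.62, SE 0.05, adjusted p = 2.15e-18). Between genotypes on VAS the log2 fold change was 0.41 (SE 0.05, adjusted p = 9.50e-06). Its exons share 2631 bases with 4430402I18Rik on the other strand, a gene with a mean value of 27.2.

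Slc1a7 (chr4:107968332-108013532), a glutamate carrier and chloride channel of photoreceptor and bipolar cell terminals, ran the other way. Slc1a7 values were 541, 567, 478, 437 and 520.4 in VAS WT and 875, 835, 813, 783 and 820.2 in VAD WT. They were 327, 269, 291, 251 and 255 in VAS Stra6-/- and 231, 232, 166, 308 and 225 in the libraries labelled VAD Stra6-/-. VAD WT was highest, VAS WT next, and the Stra6-/- groups were lowest and overlapped each other. Slc1a7 rose with the VAD diet in WT (log2 fold change 0.70, SE 0.12, adjusted p = 7.67e-04) and fell between genotypes on VAS (-0.87, SE 0.12, adjusted p = 2.13e-05) and on VAD (-1.85, SE 0.12, adjusted p = 4.58e-11), while between diets in Stra6-/- it was -0.28 (95% interval -0.54 to -0.02, adjusted p = 0.0635).

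The glial carrier Slc1a3, which takes up most glutamate in the retina through Müller cells, had means of 1044 ± 55.5 in VAS WT, 778 ± 59.9 in VAD WT, 778 ± 38.4 in VAS Stra6-/- and 958 ± 108 in the libraries labelled VAD Stra6-/- (SD, n = 5). Slc1a3 fell by 0.42 on the log2 scale in VAD WT and in VAS Stra6-/- against VAS WT (adjusted p = 0.00109 and 3.36e-04), and rose in the libraries labelled VAD Stra6-/- by 0.29 against VAS Stra6-/- and 0.30 against VAD WT. Its astrocytic relative Slc1a2 was not called in any comparison of all libraries, with means from 603 to 709.8. In VAD WT, however, Slc1a2 stood at 1248 and 1319 in replicates 2 and 4 and at 407, 297 and 278 in replicates 1, 3 and 5, with the 15 other libraries between 514 and 765. The neutral amino acid exchangers of the family changed little, Slc1a4 (serine) falling by 0.43 and 0.54 in the libraries labelled VAD Stra6-/- against VAS Stra6-/- and VAD WT (adjusted p = 0.0170 and 0.00303) and Slc1a5 (glutamine) by 0.28 against VAD WT (adjusted p = 0.0150). Slc1a6, a carrier of Purkinje cells, was at or under 52.5 in every library and was not called.

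**Figure D3:**
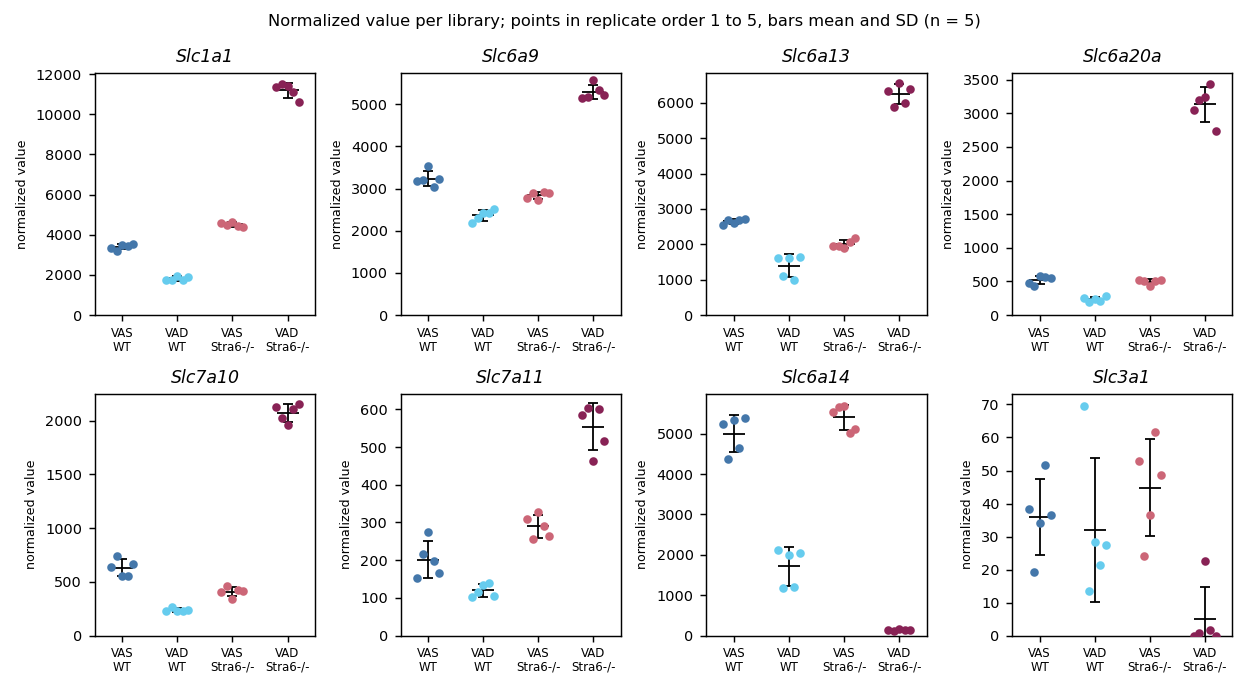
Normalized value (linear axis from 0) of 8 transporters in each library, with the points of each group in replicate order and bars for the mean and SD (n = 5). In the first 6 panels the VAD Stra6-/- points lie above the other 15 libraries and the VAD WT points below them, whereas Slc6a14 is between 124 and 165 and Slc3a1 at 22.5 or less in the libraries labelled VAD Stra6-/-.

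Of the GABA carriers in the Slc6a family, Slc6a13 (chr6:121300227-121337733), a GABA and taurine transporter known from liver, leptomeninges and epithelia, had a higher value per kilobase than Slc6a11 and Slc6a12 in every group. Slc6a13 values were 2546, 2680.3, 2606, 2697 and 2707 in VAS WT and 1613, 1101, 1617, 991 and 1647 in VAD WT. They were 1943, 1947, 1894, 2070.0 and 2192 in VAS Stra6-/- and 6347, 5887, 6559, 5999.7 and 6404 in the libraries labelled VAD Stra6-/-. The groups did not overlap, and in VAD WT replicates 2 and 4 were lower than the other 3. Slc6a13 fell with the VAD diet in WT (log2 fold change -0.96, SE 0.11, adjusted p = 5.78e-06) and by genotype on VAS (-0.40, SE 0.11, adjusted p = 0.0106). It rose in the libraries labelled VAD Stra6-/- by 1.64 against VAS Stra6-/- (SE 0.11, adjusted p = 5.38e-11) and 2.19 against VAD WT (SE 0.11, adjusted p = 4.99e-13).

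Its neighbour on chromosome 6, Slc6a12 (chr6:121343076-121365775), which carries betaine and GABA, fell in the same libraries. Slc6a12 values were 246, 232, 217, 223 and 240.1 in VAS WT and 288, 96.8, 272, 79.6 and 279 in VAD WT. They were 198, 176, 186, 171 and 198 in VAS Stra6-/- and 99.7, 87.5, 85.0, 76.4 and 106 in the libraries labelled VAD Stra6-/-. Replicates 2 and 4 of VAD WT fell in the range of the last group, and replicates 1, 3 and 5 above all other libraries. The log2 fold change was -1.03 against VAS Stra6-/- (SE 0.28, adjusted p = 0.00378) and -0.96 against VAD WT (SE 0.28, adjusted p = 0.00615), the latter -1.62 without replicates 2 and 4. With only the 2 groups compared in the fit, the adjusted p against VAD WT was 0.0730. The glial GABA carrier Slc6a11 was not called, but stood higher in replicates 2 and 4 of VAD WT (899 and 1019) than in replicates 1, 3 and 5 (at most 318).

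Slc6a9 (chr4:117834506-117875198), the glycine carrier of glia and retina, followed the order seen for Slc6a13. Slc6a9 values were 3189, 3195, 3538, 3045 and 3229 in VAS WT and 2189, 2296, 2425, 2429 and 2524 in VAD WT. They were 2770.0, 2907, 2736, 2909 and 2899 in VAS Stra6-/- and 5143, 5185, 5568, 5347 and 5225 in the libraries labelled VAD Stra6-/-. None of the groups overlapped. Slc6a9 fell with diet in WT (log2 fold change -0.45, SE 0.06, adjusted p = 1.27e-05) and by genotype on VAS (-0.19, SE 0.06, adjusted p = 0.0163), and rose in the libraries labelled VAD Stra6-/- against VAS Stra6-/- (0.90, SE 0.06, adjusted p = 1.15e-11) and VAD WT (1.16, SE 0.06, adjusted p = 2.15e-13). It shares 1429 exon bases with Ccdc24 on the other strand, at a mean of 490.4. The neuronal glycine carrier Slc6a5 stayed at or under 13.7 in every library and was called once, lower between diets in Stra6-/- (adjusted p = 0.0311).

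Slc6a7 (on chromosome 18), the proline carrier of glutamatergic neurons, was lowest in VAS Stra6-/-. Slc6a7 values were 254, 271, 297, 311 and 287 in VAS WT and 189, 331, 328, 287 and 292 in VAD WT. They were 102, 111, 97.6, 84.5 and 75.9 in VAS Stra6-/- and 247, 216, 258, 206 and 134 in the libraries labelled VAD Stra6-/-. VAS Stra6-/- lay below the other 15 libraries. As given above, inner retina neuron and cone markers were also lower there than in VAS WT, and their part in this result and in that for Slc1a7 was not tested. The log2 fold change of Slc6a7 was -1.59 between genotypes on VAS (SE 0.18, adjusted p = 1.06e-06), 1.14 between diets in Stra6-/- (SE 0.18, adjusted p = 1.24e-05) and -0.43 between genotypes on VAD (SE 0.18, adjusted p = 0.0453). The last call was lost without any 1 of 7 libraries, with values from -0.45 (replicate 2 of VAD Stra6-/-) to -0.28 (replicate 5 of VAD Stra6-/-).

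Taurine and creatine, both held at high concentration in photoreceptors, are carried by Slc6a6 and Slc6a8. Slc6a6 (chr6:91684053-91759066) had values of 7969.5, 7605, 7724, 7117 and 7293 in VAS WT and 4219, 12830.4, 4310.5, 13644 and 4022 in VAD WT. They were 15357, 16052, 16196, 16080.3 and 15542 in VAS Stra6-/- and 9617, 10236, 9171, 11240.1 and 9016 in the libraries labelled VAD Stra6-/-. VAS Stra6-/- was above all other libraries, and VAD WT split into replicates 2 and 4 above and replicates 1, 3 and 5 below VAS WT. Slc6a6 rose between genotypes on VAS (log2 fold change 1.07, SE 0.26, adjusted p = 0.00401) and fell between diets in Stra6-/- (-0.69, SE 0.26, adjusted p = 0.0312). The last call was lost under 7 alternatives, with adjusted p up to 0.0634. The diet difference in WT was -0.18 over all 5 VAD WT libraries (SE 0.26, adjusted p = 0.740) and -0.85 without replicates 2 and 4 (SE 0.06, adjusted p = 2.05e-10).

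Slc6a8 (chrX:73673150-73682502) had values of 1906, 2168, 1977, 2057 and 1829.9 in VAS WT and 1858, 1511, 1808, 1731 and 1900.3 in VAD WT. They were 2572, 2436, 2584, 2504 and 2635 in VAS Stra6-/- and 1352, 1326, 1355, 1253 and 1441 in the libraries labelled VAD Stra6-/-. Its highest libraries were those of VAS Stra6-/- and its lowest those labelled VAD Stra6-/-, with both WT groups between. Slc6a8 rose between genotypes on VAS (log2 fold change 0.36, SE 0.07, adjusted p = 3.15e-04) and fell between diets in Stra6-/- (-0.92, SE 0.07, adjusted p = 1.20e-10) and between genotypes on VAD (-0.39, SE 0.07, adjusted p = 3.83e-05). Slc6a8, Slc6a14, Slc38a5 and Slc7a3 are the X-linked members, and Xist separated VAS WT from VAS Stra6-/- as given above.

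Slc6a14 (chrX:21714896-21742355), which concentrates neutral and basic amino acids in lung, gut and mucosal epithelia, had the largest decrease. Slc6a14 values were 5248, 4376, 5330.1, 4652 and 5395 in VAS WT and 2126, 1180.4, 2006, 1207 and 2041 in VAD WT. They were 5528, 5649.5, 5686, 5018 and 5125 in VAS Stra6-/- and 140.0, 124, 165, 147 and 145 in the libraries labelled VAD Stra6-/-. The VAS groups overlapped, VAD WT lay below both, and the libraries labelled VAD Stra6-/- lay far below VAD WT. Slc6a14 fell between diets in WT (log2 fold change -1.59, SE 0.14, adjusted p = 1.39e-07) and in Stra6-/- (-5.22, SE 0.14, adjusted p = 1.72e-17), and between genotypes on VAD (-3.52, SE 0.14, adjusted p = 1.16e-14). On VAS the genotypes differed by 0.11 (95% interval -0.18 to 0.41, adjusted p = 0.607). Surface epithelium markers moved with it in Stra6-/-, with 15 of 15 called lower between diets and a median of -4.98 on the log2 scale. In WT 4 of 15 were called lower and their median was 0.05, but VAD WT was split. The markers summed to 712646, 300591, 698578, 298568 and 702278 in its replicates 1 to 5, against 543817 to 608199 in VAS WT. Replicates 2 and 4, where the sums were lowest, also had the lowest Slc6a14 in VAD WT. In replicates 1, 3 and 5 the sums lay above VAS WT while Slc6a14 lay below it. The part of these cells in the decrease was not tested.

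Slc6a20a (chr9:123634770-123678885), a carrier of proline and other imino acids, had the largest increase. Slc6a20a values were 483, 437, 579, 566 and 559 in VAS WT and 252, 202, 243, 205 and 285 in VAD WT. They were 524, 507, 428, 502 and 516 in VAS Stra6-/- and 3049.8, 3196, 3245, 3434 and 2736 in the libraries labelled VAD Stra6-/-. The VAS groups overlapped, with VAD WT below and the libraries labelled VAD Stra6-/- above. Slc6a20a fell with diet in WT (log2 fold change -1.15, SE 0.10, adjusted p = 1.78e-07) and rose in the libraries labelled VAD Stra6-/- by 2.66 against VAS Stra6-/- (SE 0.10, adjusted p = 5.10e-15) and 3.73 against VAD WT (SE 0.10, adjusted p = 4.10e-17). On VAS the genotypes differed by -0.08 (95% interval -0.29 to 0.14). Its near-identical copy Slc6a20b was at or under 14.3 in every library, and how reads were split between the copies makes both uncertain.

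Of the other neutral amino acid carriers of the family, Slc6a15 and Slc6a17 were called higher and Slc6a19 lower between genotypes on VAD. The branched-chain amino acid carrier Slc6a15 had means of 300.0 ± 38.9 in VAS WT, 263 ± 70.6 in VAD WT, 288 ± 29.3 in VAS Stra6-/- and 697 ± 31.1 in the libraries labelled VAD Stra6-/- (SD, n = 5), a log2 fold change of 1.28 against VAS Stra6-/- and 1.44 against VAD WT (adjusted p = 1.43e-07 and 2.32e-08). Slc6a17, a vesicular carrier of neurons, was at 1191 ± 67.9, 943 ± 317, 1673 ± 85.1 and 2098 ± 155 in the same order, called at 0.49 between genotypes on VAS and 1.22 on VAD (adjusted p = 0.0169 and 4.02e-07), with 0.33 between diets in Stra6-/- (adjusted p = 0.0691). Slc6a19, the main neutral amino acid carrier of gut and kidney, was at or under 17.7 in every library and at or under 1.80 in those labelled VAD Stra6-/-, where it was called lower than in VAS Stra6-/- and VAD WT (adjusted p = 0.0229 and 0.0477). The monoamine carriers Slc6a2, Slc6a3 and Slc6a4, for noradrenaline, dopamine and serotonin, were not called in any comparison of all libraries. In VAD WT, however, Slc6a2 stood at 231 and 199 in replicates 2 and 4 and at 14.1 to 37.7 in the other 3, and without that pair it was lower in VAD WT than in VAS WT (-0.87, adjusted p = 0.0287).

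The glutamine carriers of the Slc38a family were led by Slc38a2 (chr15:96687392-96699730), whose mRNA is known to rise when amino acids are scarce, and Slc38a3 (chr9:107650634-107669530), a glutamine carrier of glia and liver. Slc38a2 values were 3828, 3547, 3569.6, 3764 and 3695 in VAS WT and 3956, 3649, 3668, 3800.1 and 3806 in VAD WT. They were 10061, 9901, 10161, 9462 and 10009 in VAS Stra6-/- and 3285, 3613, 3279.6, 3593 and 3235 in the libraries labelled VAD Stra6-/-. VAS Stra6-/- lay above the other 15 libraries, which spanned only 3235 to 3956. Slc38a2 rose between genotypes on VAS (log2 fold change 1.43, SE 0.05, adjusted p = 8.56e-14), and fell between diets in Stra6-/- (-1.55, SE 0.05, adjusted p = 8.21e-16) and slightly between genotypes on VAD (-0.15, SE 0.05, adjusted p = 0.0203). In WT the diet difference was 0.04 (95% interval -0.07 to 0.15, adjusted p = 0.748), and replicates 2 and 4 lay within the range of the other VAD WT libraries or just below it.

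Slc38a3 was called in the opposite direction to Slc38a2 between genotypes on VAS and between diets in Stra6-/-, while both were called lower between genotypes on VAD. Slc38a3 values were 4595, 4813, 4549, 4148 and 5079 in VAS WT and 5356, 4543, 5429.9, 4525 and 5195 in VAD WT. They were 2499.8, 2618, 2906, 2636 and 2617 in VAS Stra6-/- and 4208, 4280.1, 4119.9, 4162 and 4158 in the libraries labelled VAD Stra6-/-. VAS Stra6-/- lay below the other 15 libraries. The log2 fold change was -0.80 between genotypes on VAS (SE 0.07, adjusted p = 2.65e-08), 0.66 between diets in Stra6-/- (SE 0.07, adjusted p = 3.75e-08), -0.25 between genotypes on VAD (SE 0.07, adjusted p = 0.00296) and 0.11 between diets in WT (SE 0.07, adjusted p = 0.373, or 0.20 and adjusted p = 0.00527 without replicates 2 and 4 of VAD WT).

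Slc38a6 (chr12:73286779-73354049), a vesicular member of neurons, stepped down across the groups. Slc38a6 values were 278, 322, 246, 284 and 346 in VAS WT and 365, 156, 274, 183 and 294 in VAD WT. They were 132, 137, 139, 168 and 163 in VAS Stra6-/- and 84.6, 59.5, 72.7, 103 and 77.8 in the libraries labelled VAD Stra6-/-. The last group was below the other 15 libraries, and replicates 2 and 4 of VAD WT reached down to VAS Stra6-/-. Slc38a6 fell between genotypes on VAS (log2 fold change -0.99, SE 0.20, adjusted p = 8.54e-04) and VAD (-1.62, SE 0.20, adjusted p = 5.75e-07), and between diets in Stra6-/- (-0.90, SE 0.20, adjusted p = 6.51e-04).

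Slc38a9 (chr13:112660751-112738749), the lysosomal arginine sensor upstream of mTORC1, fell in the Stra6-/- groups. Slc38a9 values were 592, 678, 648, 687 and 601 in VAS WT and 498, 522, 606, 526 and 682 in VAD WT. They were 473, 595, 481, 479.7 and 503 in VAS Stra6-/- and 344, 330.1, 316, 373 and 259.6 in the libraries labelled VAD Stra6-/-. The libraries labelled VAD Stra6-/- lay below all others, and replicate 2 of VAS Stra6-/- overlapped VAS WT. The log2 fold change was -0.34 between genotypes on VAS (SE 0.11, adjusted p = 0.0195), -0.80 on VAD (SE 0.11, adjusted p = 1.28e-06) and -0.65 between diets in Stra6-/- (SE 0.11, adjusted p = 2.25e-05).

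Of the other Slc38a members, Slc38a1, a neuronal glutamine carrier, had means of 996 ± 91.3 in VAS WT, 959.6 ± 523 in VAD WT, 1216 ± 80.2 in VAS Stra6-/- and 2844 ± 177 in the libraries labelled VAD Stra6-/- (SD, n = 5). The wide SD of VAD WT came from replicates 2 and 4 at 1530 and 1532 against 508 to 633 in the other 3. Slc38a1 rose by 1.23 against VAS Stra6-/- and 1.74 against VAD WT (adjusted p = 9.73e-05 and 1.21e-06). Slc38a10 rose by 0.73 and 0.92 (adjusted p = 7.13e-08 and 2.25e-09) and Slc38a8 by 0.57 and 0.78 (adjusted p = 0.0169 and 0.00182) in the same comparisons. Over all libraries Slc38a5 and Slc38a11 were called against VAD WT alone, but with values of at most 28.3 and 35.1 in any library. Slc38a4 and the lysosomal glutamine exporter Slc38a7 were not called.

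In the proton-coupled Slc36a family Slc36a4 (chr9:15709738-15743361), a carrier of tryptophan and proline on lysosomes and plasma membranes, rose in Stra6-/-. Slc36a4 values were 17.7, 46.1, 32.1, 27.3 and 42.0 in VAS WT and 23.6, 79.3, 12.8, 89.0 and 11.7 in VAD WT. They were 101, 105, 159, 107 and 127 in VAS Stra6-/- and 60.5, 65.8, 61.4, 101 and 66.8 in the libraries labelled VAD Stra6-/-. VAS Stra6-/- and VAS WT did not overlap (log2 fold change 1.88, SE 0.45, adjusted p = 0.00370), whereas replicates 2 and 4 of VAD WT reached into the range of the libraries labelled VAD Stra6-/- (1.17, SE 0.45, adjusted p = 0.0341). That second call was lost under 9 alternatives, with values from 0.71 (edgeR) to 1.19, and the difference was 2.12 without replicates 2 and 4 of VAD WT. Slc36a1, the lysosomal exporter of small amino acids, fell by 0.45 between diets in Stra6-/- (adjusted p = 0.0325), Slc36a2 rose by 1.03 between genotypes on VAD (adjusted p = 0.0369), and Slc36a3, listed at 0 in all WT libraries and at or under 7.05 elsewhere, was called higher in the latter comparison (adjusted p = 0.0330).

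The Slc43a family holds 2 facilitative carriers of branched-chain amino acids, Slc43a1 and Slc43a2, and Slc43a3, which is known to carry purine nucleobases and not amino acids. Slc43a1 (chr2:84838850-84863594) had values of 76.6, 75.0, 84.6, 72.2 and 86.6 in VAS WT and 120.3, 234, 122, 309.8 and 98.8 in VAD WT. They were 155, 160.2, 177, 197 and 119.9 in VAS Stra6-/- and 223, 188, 246, 193 and 248 in the libraries labelled VAD Stra6-/-. All 15 libraries of the other 3 groups lay above VAS WT, and within VAD WT replicates 2 and 4 were highest. Slc43a1 rose between genotypes on VAS (log2 fold change 1.01, SE 0.24, adjusted p = 0.00356) and between diets in WT (1.01, SE 0.24, adjusted p = 0.00996, or 0.52 without replicates 2 and 4). With only the 2 groups compared in the fit, the adjusted p between diets in WT was 0.130. Slc43a2 rose in the libraries labelled VAD Stra6-/- to 1015 ± 80.6 (SD, n = 5), by 0.80 against VAS Stra6-/- and 1.21 against VAD WT (adjusted p = 5.05e-04 and 4.34e-06).

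Slc43a3 (chr2:84936579-84958509) had values of 295, 229.7, 197, 223 and 219 in VAS WT and 244, 387, 196, 311 and 118 in VAD WT. They were 552, 582, 506, 534 and 427 in VAS Stra6-/- and 334, 369, 347, 343 and 316 in the libraries labelled VAD Stra6-/-. VAS Stra6-/- was above the other 15 libraries. Slc43a3 rose between genotypes on VAS (log2 fold change 1.16, SE 0.21, adjusted p = 2.79e-04) and fell between diets in Stra6-/- (-0.60, SE 0.21, adjusted p = 0.0211). Its call between genotypes on VAD (0.55, SE 0.21, adjusted p = 0.0309) was lost under 8 alternatives, among them without replicate 5 of VAD WT (0.31, adjusted p = 0.108).

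Read over all 20 libraries, the members fell into a few orders. In 16 of 59 (27.1%) every library labelled VAD Stra6-/- lay above the other 15, against 14.4% of all genes, and in 5 (8.47%) below them, against 14.3%. The 16 were Slc1a1, Slc3a2, Slc6a9, Slc6a13, Slc6a15, Slc6a17, Slc6a20a, Slc7a2, Slc7a4, Slc7a5, Slc7a8, Slc7a10, Slc7a11, Slc38a1, Slc38a10 and Slc43a2, and the 5 were Slc6a8, Slc6a14, Slc7a1, Slc38a6 and Slc38a9. VAS Stra6-/- lay above all others in 5 (8.47%, against 7.82% of all genes), Slc6a6, Slc6a8, Slc7a1, Slc38a2 and Slc43a3, and below in 2 (3.39%, against 1.83%), Slc6a7 and Slc38a3. For 8 members (13.6%, against 0.923% of all genes) the libraries labelled VAD Stra6-/- were above and the VAD WT libraries below all the rest, namely Slc1a1, Slc3a2, Slc6a9, Slc6a13, Slc6a20a, Slc7a8, Slc7a10 and Slc7a11. This double order was picked out after the values were seen. Of 16 RPE markers 15 had the libraries labelled VAD Stra6-/- above the other 15 and 8 had the double order, of 10 macrophage markers 8 and 3, of 10 sclera and fibroblast markers 6 and 0, of 7 Müller glia markers 3 and 1, and of 15 surface epithelium markers 0 and 0. All 15 surface epithelium markers were lowest in the libraries labelled VAD Stra6-/-. The part of cell composition in these orders was not tested.

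The diet difference was called unequal in the genotypes for 29 members (49.2%), near the 44.4% of all genes. Of the 8 with the double order the interaction was largest for Slc6a20a at 3.80 on the log2 scale (SE 0.15), Slc7a10 at 3.74 (SE 0.13), Slc6a13 at 2.59 (SE 0.16) and Slc1a1 at 2.21 (SE 0.08), each lower on VAD in WT and higher on VAD in Stra6-/-. The most negative values were those of Slc3a1 at -3.75 (SE 0.92) and Slc6a14 at -3.63 (SE 0.20), followed among members above 50 by Slc7a1 at -1.76 (SE 0.13) and Slc38a2 at -1.58 (SE 0.08).

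**Figure D4:**
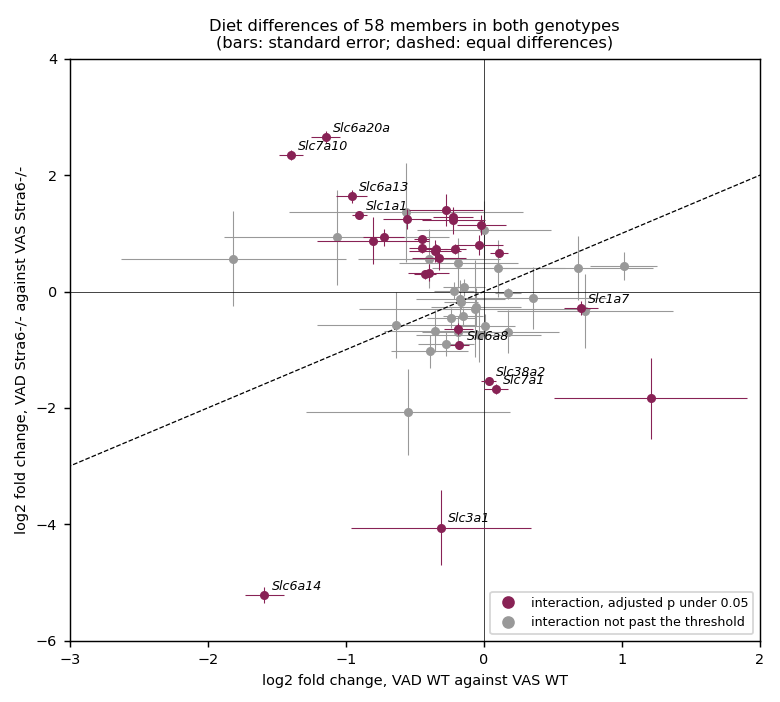
Log2 fold change with the VAD diet in WT (horizontal axis) against that in Stra6-/- (vertical axis) for 58 of the transporters, with standard errors as bars and the dashed line marking equal differences. Slc6a20a, Slc7a10, Slc6a13 and Slc1a1 lie at the upper left, from -0.90 to -1.40 in WT and from 1.31 to 2.66 in Stra6-/-, Slc6a14 is at the lower left, and Slc38a2 and Slc7a1 lie straight below 0.

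The split of VAD WT reached many members. In 24 of 59 (40.7%) replicates 2 and 4 lay above replicates 1, 3 and 5 without overlap and in 12 (20.3%) below, against 31.6% and 29.8% of all genes. The RPE marker sum was 65444 and 64164 in these 2 libraries and 35929, 37609 and 38373 in the others. Further marker sums were also higher there, for rods (340425 and 339510 against 133355 to 137649) and sclera and fibroblasts (167019 and 170578 against 48717 to 51030). Those of erythrocytes were 44884 and 45389 against 3175 to 3373. Surface epithelium sums were lower (300591 and 298568 against 698578 to 712646), and macrophage sums overlapped. The part of cell composition in the split was not tested. Without replicates 2 and 4, VAD WT differed from VAS WT in 31 members, 4 higher and 27 lower, where 38.0% of all genes were called (17.7% higher and 20.4% lower), and the median was -0.43 over the members and -0.02 over all genes. The 13 calls made with all libraries were among the 31. Calls added in this way included Slc6a6 at -0.85, Slc1a2 at -0.97, Slc7a2 at -0.91, Slc38a1 at -0.78, Slc6a11 at -0.85 and Slc7a5 at -0.51. The pair was left out because these same values set it apart, so the added calls are descriptive and no test of diet.

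Genes around the transporters were read from 6 lists. The counts of each list stand beside the shares of all genes tested. Those called higher and lower were 15.9% and 10.8% between genotypes on VAS, and 3.29% and 5.52% between diets in WT. Between diets in Stra6-/- the shares were 24.5% and 28.9%, and between genotypes on VAD 26.3% and 29.7%. Of 22 genes of the amino acid response driven by ATF4, 8 were higher and 2 lower in VAS Stra6-/- than in VAS WT (median log2 fold change 0.43), 4 and 3 in VAD WT against VAS WT (0.01), 6 and 7 between diets in Stra6-/- (0.00) and 8 and 4 between genotypes on VAD (0.24). Atf4 itself rose by 0.96 in VAS Stra6-/- against VAS WT (SE 0.06, adjusted p = 1.68e-10) and fell by 0.80 between diets in Stra6-/- (SE 0.06, adjusted p = 9.40e-11). Its targets in the list did not share 1 direction, since Asns, the asparagine synthetase, rose by 0.69 on VAS (adjusted p = 0.00546), Sesn2, the leucine sensor, by 1.83 (adjusted p = 1.93e-06), and Ddit3, a death-promoting factor, fell by 0.29 (adjusted p = 0.00395). Chac1, which degrades glutathione, was at 0.11 on VAS (adjusted p = 0.783) and fell by 4.36 between diets in Stra6-/- (adjusted p = 1.22e-12).

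Amino acid sensing by mTORC1 was covered by 17 genes, of which 11 were higher and 4 lower between diets in Stra6-/- (median 0.35), 10 and 4 between genotypes on VAD (0.28), 4 and 1 on VAS (0.07) and 1 and 0 between diets in WT (0.08). Rragd, one of the Rag GTPases that recruit mTORC1 to lysosomes, rose by 1.96 and 2.62 in the libraries labelled VAD Stra6-/- against VAS Stra6-/- and VAD WT. For 10 genes of glutathione synthesis, use and breakdown, Chac1 among them, the counts higher and lower were 1 and 2 between genotypes on VAS (median 0.06), 1 and 3 between diets in WT (0.00), 6 and 2 between diets in Stra6-/- (0.35) and 6 and 2 between genotypes on VAD (0.53). Gclc, whose enzyme catalyses the rate-limiting step of glutathione synthesis, rose in all 4, by 0.89, 0.35, 0.28 and 0.83 in this order. For 11 enzymes of glutamate and glutamine they were 3 and 0 (0.11), 2 and 1 (0.13), 3 and 4 (-0.21) and 4 and 5 (-0.19), and for 10 enzymes of creatine and taurine 2 and 4 (-0.17), 0 and 2 (-0.18), 5 and 3 (0.19) and 5 and 3 (0.38). Gatm, the first enzyme of creatine synthesis, fell by 1.27 in VAS Stra6-/- against VAS WT (SE 0.23, adjusted p = 3.42e-04), the comparison in which the creatine carrier Slc6a8 rose.

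Of 15 other amino acid and peptide transporters, 2 were higher and 1 lower between genotypes on VAS (median -0.06), 1 and 2 between diets in WT (-0.29), 2 and 4 between diets in Stra6-/- (-0.15) and 6 and 4 between genotypes on VAD (-0.03). The peptide transporter Slc15a2 fell by 1.82 between diets in WT (SE 0.11, adjusted p = 7.54e-10) and by 0.81 between genotypes on VAS (SE 0.11, adjusted p = 1.73e-05). Slc16a12, a creatine carrier of the monocarboxylate family, rose by 1.00 between genotypes on VAS (SE 0.20, adjusted p = 7.55e-04) and by 0.83 between diets in WT (SE 0.20, adjusted p = 0.0107), and fell by 1.55 between diets in Stra6-/- (SE 0.20, adjusted p = 1.01e-06).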

How the data were processed

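RNA of the outer eyecup was sequenced in 20 libraries. The signal deposited by the authors is, as the values show, each gene's count divided by 1 size factor per library, without length or log scaling. Per the study's methods and the submitters' processing notes, reads were aligned with STAR 2.5.3a, counted per gene with RSEM 1.2.30 and tested with DESeq2 1.32.0 (GRCm38/mm10). The libraries were made from mRNA enriched on oligo(dT) beads, with cDNA primed by random hexamers. Whole reads were recovered for 19 libraries (tolerance 1e-06). They were not claimed for replicate 1 of VAD Stra6-/-, whose size factor is near 1. Reads per library numbered 13331903 to 21878614 (median 17785927).

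Groups came from the sample labels. limma 3.58.1 (R 4.3.3) was fitted to log2(value + 1) with 4 group means, an intensity trend and Benjamini-Hochberg adjustment over 18745 genes whose values summed to at least 5, so changes of low genes are understated. Alternatives used edgeR 4.0.16 and DESeq2 1.42.0 on recovered reads of 19 libraries, other pseudocounts, filters, scalings and sample sets, a replicate block and each library left out. On simulated data with 200 of 18745 genes changed, limma recovered 184 with 10 false calls and edgeR 198 with 5. Values in every library are printed for up to 5 members per comparison and direction with the largest change (adjusted p under 0.05, mean of at least 50 in a group, no overlap), both heavy chains, Slc6a8, Slc6a20a, Slc7a10 and the 6 most abundant members. The members and lists were chosen with earlier results of these data known. Of the listed pathway genes, Cltrn, Slc66a1, Castor1, Castor2 and Samtor were not matched. Positions and exon lengths are from GENCODE vM21, and windows before starts from RefSeq. The values of 1 member, which is included in the counts, are not reported here.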

Additional observations from a re-analysis of the deposited data

Results flagged for a closer look

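Of 100 groups of 5 libraries tested for the members printed in every library, 6 held 1 library farther from the rest than Dixon's critical value of 0.71 allows, and chance flags about 1 in 20. Slc36a4 stood at 100.9 in replicate 4 of VAD Stra6-/- (the others 60.5 to 66.8). Slc38a9 stood at 595 in replicate 2 of VAS Stra6-/- (473 to 503). Slc3a1 stood at 69.6 in replicate 1 of VAD WT (13.4 to 28.4) and at 22.5 in replicate 3 of VAD Stra6-/- (0 to 1.76). Slc6a20a stood at 428 in replicate 3 of VAS Stra6-/- (502 to 524), and Slc7a10 at 269 in replicate 2 of VAD WT (224 to 237).

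The diet difference was unequal in the genotypes for 29 members (limma interaction, adjusted p under 0.05), against 44.4% of all genes. The values that follow are the Stra6-/- minus the WT diet difference on the log2 scale. Among glutamate carriers it was 2.21 for Slc1a1, 0.72 for Slc1a3 and -0.98 for Slc1a7. The heavy chains had 1.08 (Slc3a2) and -3.75 (Slc3a1), and the light chains 1.66 (Slc7a11), 1.203 (Slc7a8), 3.74 (Slc7a10) and 1.06 (Slc7a7). Cationic carriers had -1.76 (Slc7a1) and 1.68 (Slc7a2), and the related Slc7a4 had 1.81. In the Slc6a family the values were 2.59 for Slc6a13, 1.34 for Slc6a9, 3.80 for Slc6a20a, 1.498 for Slc6a15, 0.73 for Slc6a17, 1.16 for Slc6a7, -0.74 for Slc6a8, -3.63 for Slc6a14 and -3.05 for the near-absent Slc6a5. The Slc38a family had 1.45 (Slc38a1), 0.94 (Slc38a10), -1.58 (Slc38a2), 0.55 (Slc38a3), 0.90 (Slc38a8) and -0.46 (Slc38a9), and Slc36a2 and Slc43a2 had 1.68 and 0.84. These values include the libraries labelled VAD Stra6-/-, in which Stra6 was higher than in VAD WT.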

How the results depend on the processing

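For the printed members, 90 calls were recomputed under each alternative, which gave 2043 values. None changed direction, 2004 kept their side of the threshold and 39 lost it, in 10 of the 90 calls. Among comparisons of these members without a call, 18 gained one under at least 1 alternative. Without VAD WT replicates 2 and 4 these included Slc6a6 between genotypes on VAD (1.23, from 0.57 over all libraries) and Slc6a6, Slc7a1, Slc7a2, Slc7a5, Slc36a4 and Slc38a3 between diets in WT. Restricting the fit to the 2 groups compared ended the calls of Slc3a2, Slc43a1 and Slc7a11 between diets in WT (adjusted p = 0.116, 0.130 and 0.0672) and of Slc6a12 between genotypes on VAD (adjusted p = 0.0730), and leaving out replicate 2 of VAS Stra6-/- that of Slc43a3 between diets in Stra6-/- (adjusted p = 0.0501). The main fit shares 1 estimate of spread per gene over the 4 groups. In VAD WT the SD was wider than in VAS WT for Slc3a2 (563 against 119) and Slc43a1 (91.1 against 6.28), but not for Slc7a11 (16.8 against 48.3). The cause of each lost call was not tested.

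The count of members called between genotypes on VAD, 41, became 26 with a fold change beyond 1 on the log2 scale required and 8 beyond 2. Between diets in Stra6-/- the 33 became 16 and 5, between diets in WT the 13 became 4 and 0, between genotypes on VAS the 24 became 8 and 0, and the 29 interactions became 7 beyond 2. Of all 18745 genes tested, 2106 were called higher and 2959 lower beyond 1 between genotypes on VAD. The counts of all genes were 1599 and 2887 between diets in Stra6-/-, 67 and 259 between diets in WT, and 619 and 306 between genotypes on VAS. Between diets in WT the count was also 8 with only the 2 groups in the fit and 31 without the pair of VAD WT replicates 2 and 4, an alternative chosen after seeing the data. Leaving out each library in turn gave 34 to 42 between genotypes on VAD, 29 to 34 between diets in Stra6-/-, 12 to 16 between diets in WT, 23 to 25 between genotypes on VAS and 29 to 32 interactions. edgeR and DESeq2 on recovered reads called 34 and 35 members between genotypes on VAD. The share of all genes called was not counted for these tools, with each library left out, with only the 2 groups in the fit or with the replicate block below. Counts under these settings therefore describe the processing and are no result about the members.

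With the replicate number as a block the counts were 40 between genotypes on VAD, 32 between diets in Stra6-/-, 12 between diets in WT, 25 between genotypes on VAS and 29 interactions. The numbers do not pair the samples, since of 30 pairs with the same number 1 had a correlation of deviations over 0.1 (-0.13 to 0.11). Bulk values close to 0, as for Slc3a1, set a limit to the precision of a fold.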
